A study of Homo sapiens with 8 samples.

Results

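The regions described here are 188 open-chromatin peaks at the ends of human genes that lost at least 50% of their mean accessibility after 1 h of hyperosmotic stress. Omni-ATAC-seq gave the accessibility: a transposase cuts and tags open DNA in isolated nuclei. Each peak's level is given in CPM, the peak's count scaled to the library's total over all peaks. A peak belonged to the set if it lay on an autosome, if its CPM was lower in every sorbitol library than in every vehicle library, and if its mean sorbitol CPM was at most 0.5 of its mean vehicle CPM. It also had to lie within 1 kb of either end of a gene in RefSeq's GRCh38.p14 table, and within 1 kb of no tRNA or snRNA gene. Of 129536 peaks in all, 124687 were autosomal and 636 of these met the conditions on counts (0.510%). Among 23956 autosomal gene-end peaks away from tRNA and snRNA genes, the 188 members made up 0.785%. A further 29 peaks that met the conditions on counts lay at tRNA or snRNA genes and were left out, and 419 of 100273 peaks away from gene ends met them (0.418%).

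The cells were HEK293, an established human embryonic kidney line, with the genotype given as eGFP-YAP, a fusion of green fluorescent protein with the coactivator YAP. Both groups carried it, and the library names hold a "wt" code although the genotype field says eGFP-YAP. Vehicle-treated cells gave 4 libraries, and cells treated with sorbitol at 0.2 M for 1 h, a solute that makes cells shrink, gave the other 4. The column names code vehicle as the start of the time course and sorbitol as 1 h. By these labels, sorbitol and the passing of 1 h cannot be told apart. Per the series' design text, the cells were starved of serum for 1 h beforehand. The labels do not say whether the libraries came from separate cultures or whether the line is 1 clone. Of 5 genes chosen to mark kidney-derived epithelial cells, LHX1, SALL1 and CDH2 had a gene-end peak (14.6, 51.4 and 119 CPM in vehicle), and PAX2 and PAX8 had none. Among markers of blood, liver and heart, PTPRC had 1 weak peak (1.16 CPM), and CD3E, ALB and MYH6 had none.

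Open chromatin at a gene's start marks the promoter, where transcription factors and RNA polymerase II keep nucleosomes away. At the far end, beyond the site where the transcript is cleaved and polyadenylated, polymerase slows and leaves the template, and chromatin there can also be open. The zinc finger genes of chromosome 19, which supply many members, lie in tandem clusters, and many encode KRAB zinc finger proteins, DNA-binding repressors that silence transposable elements.

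The promoters printed here belong to members at gene starts: the 3 zinc finger genes ZNF724, ZNF493 and ZNF66 of 1 cluster, ZNF586 and ZNF808 of 2 others, the lncRNA genes LINC01535 and ZNF790-AS1, and MSH4, which had the largest loss outside chromosome 19 among gene starts with a listed promoter. Each run is the 250 bases before the RefSeq start, 5′ to 3′ on the gene's own strand, from RefSeq's GRCh38.p14 sequence. Capitals mark matches, on either strand, to any of 12 short motifs searched, and neighbouring or overlapping matches run together. ZNF724 lies on the minus strand (chr19:23250395-23250644). The others lie on the plus strand: ZNF493 (chr19:21396883-21397132), ZNF66 (chr19:20776054-20776303), ZNF586 (chr19:57769426-57769675), ZNF808 (chr19:52527418-52527667), LINC01535 (chr19:37251635-37251884), ZNF790-AS1 (chr19:36797313-36797562) and MSH4 (chr1:75796632-75796881).
ZNF724: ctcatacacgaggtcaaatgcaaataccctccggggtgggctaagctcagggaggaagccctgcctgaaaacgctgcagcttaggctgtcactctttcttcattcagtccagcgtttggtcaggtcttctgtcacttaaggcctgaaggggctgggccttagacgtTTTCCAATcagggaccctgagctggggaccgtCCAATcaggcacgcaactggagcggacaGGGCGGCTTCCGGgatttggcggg
ZNF493: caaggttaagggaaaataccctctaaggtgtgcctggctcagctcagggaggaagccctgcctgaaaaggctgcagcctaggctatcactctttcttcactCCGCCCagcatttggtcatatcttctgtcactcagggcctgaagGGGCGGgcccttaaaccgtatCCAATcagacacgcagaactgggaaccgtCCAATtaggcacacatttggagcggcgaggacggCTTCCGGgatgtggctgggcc
ZNF66: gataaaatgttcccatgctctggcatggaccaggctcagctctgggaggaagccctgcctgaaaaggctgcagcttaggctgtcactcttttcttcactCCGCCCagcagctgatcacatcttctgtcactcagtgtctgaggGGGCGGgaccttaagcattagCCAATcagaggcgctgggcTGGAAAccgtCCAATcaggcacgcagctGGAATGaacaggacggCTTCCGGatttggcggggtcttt
ZNF586: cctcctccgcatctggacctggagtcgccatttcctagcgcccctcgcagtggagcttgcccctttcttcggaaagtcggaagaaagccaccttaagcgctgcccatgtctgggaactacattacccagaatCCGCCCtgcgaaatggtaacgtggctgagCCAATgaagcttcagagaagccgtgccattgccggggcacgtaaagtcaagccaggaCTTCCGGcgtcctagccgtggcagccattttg
ZNF808: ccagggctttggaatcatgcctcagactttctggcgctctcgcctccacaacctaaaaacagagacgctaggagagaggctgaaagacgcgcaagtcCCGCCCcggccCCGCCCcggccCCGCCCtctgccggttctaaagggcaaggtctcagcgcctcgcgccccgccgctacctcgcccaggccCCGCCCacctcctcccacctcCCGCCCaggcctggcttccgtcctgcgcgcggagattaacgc
LINC01535: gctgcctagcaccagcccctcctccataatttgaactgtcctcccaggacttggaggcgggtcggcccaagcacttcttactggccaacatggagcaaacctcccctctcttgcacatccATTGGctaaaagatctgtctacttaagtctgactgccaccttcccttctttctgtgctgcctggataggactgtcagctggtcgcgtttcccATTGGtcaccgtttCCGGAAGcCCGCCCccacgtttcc
ZNF790-AS1: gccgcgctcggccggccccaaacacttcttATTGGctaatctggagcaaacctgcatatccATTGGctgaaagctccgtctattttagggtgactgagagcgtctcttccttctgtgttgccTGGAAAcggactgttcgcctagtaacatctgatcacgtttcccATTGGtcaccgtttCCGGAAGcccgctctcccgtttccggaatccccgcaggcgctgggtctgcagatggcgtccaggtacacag
MSH4: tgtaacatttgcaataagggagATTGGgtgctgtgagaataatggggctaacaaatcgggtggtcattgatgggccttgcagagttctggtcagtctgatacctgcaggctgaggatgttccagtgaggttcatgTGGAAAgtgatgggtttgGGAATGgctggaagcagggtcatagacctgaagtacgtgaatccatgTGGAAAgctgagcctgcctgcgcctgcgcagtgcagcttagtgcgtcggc
The ETS core CCGGAAG, or its reverse complement, stands in 6 of these 8 runs, and CCAAT stands in 7. The 8 runs were picked for printing, so these counts are not shares of the members. In the 38 members' windows of 300 bases described below, each of the motifs stood in 52.6%. ZNF724, ZNF493 and ZNF66 share stretches of the same sequence: the longest identical run was 28 bases between ZNF724 and ZNF493 and 31 bases between ZNF493 and ZNF66. LINC01535 and ZNF790-AS1, which lie in the same part of chromosome 19, share a run of 34 bases that holds both motifs.

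Members ranged from 0.271 to 0.500 in the ratio of mean sorbitol to mean vehicle CPM, with a median of 0.458. By the rule, all 188 had sorbitol libraries below vehicle libraries, as did 24.0% of gene-end peaks, and nothing is read from that count. The gap was often narrow: the lowest vehicle library stood a median of 1.53 times above the highest sorbitol library, from 1.02 to 2.63 times. The loss was partial in most members, since 103 had a ratio over 0.45 and 30 a ratio of 0.4 or less. Just inside the limit were LOC124901078 (49.97% of the vehicle mean left), the pseudogene NAIPP3 (49.98%) and DGCR8 (49.99%), which encodes the partner of Drosha in microRNA processing. ZDHHC12-DT (50.01%), LOC105379505 (50.1%) and the immunoglobulin pseudogene IGHVIII-76-1 (50.2%) fell just outside. Another 490 gene-end peaks had separated libraries and a ratio between 0.5 and 0.6, so the limit cuts through a continuous range.

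**Figure D1:**
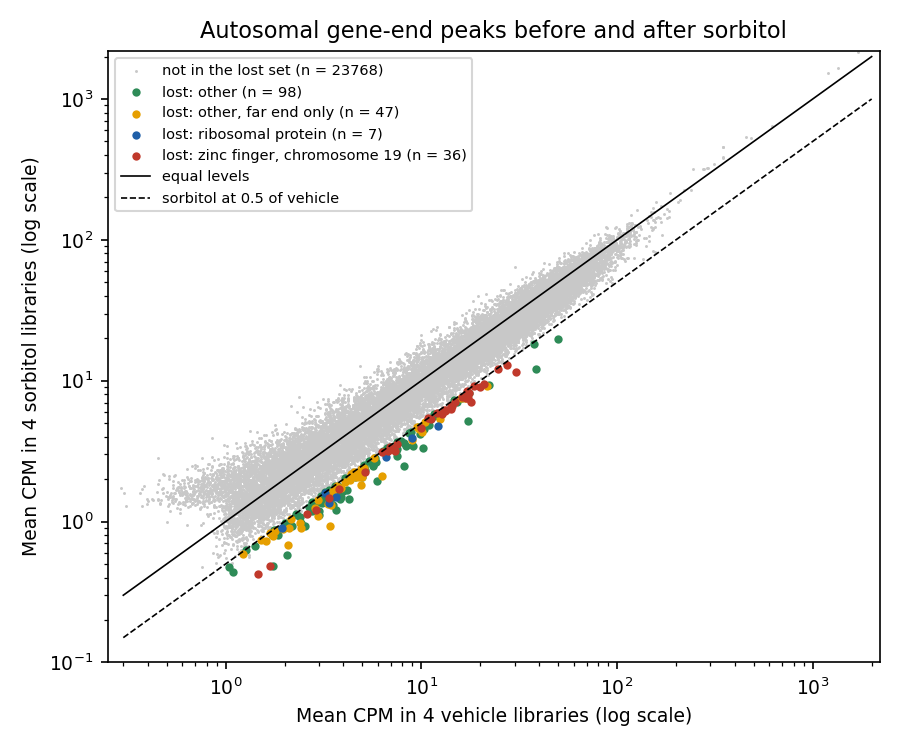
Mean CPM of each autosomal gene-end peak in 4 vehicle libraries (x axis, log scale) and in 4 sorbitol libraries (y axis, log scale); coloured points are the 188 members and grey points the others, with lines at equal levels and at 0.5 of the vehicle level. Members hug the lower edge of the cloud just under the 0.5 line, and 36 of them, in red, are zinc finger peaks of chromosome 19.

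Members were weak to moderate peaks. Their vehicle level had a median of 4.92 CPM (quartiles 3.05 and 9.62), against 11.2 CPM (3.36 and 30.4) for all gene-end peaks, and their median width was 406 bp against 761 bp. In the third decile of vehicle level, 48 peaks (2.00%) were members, and in the highest decile 1 was (0.0417%). Zinc finger members of chromosome 19 were stronger, with a median of 13.2 CPM in vehicle, and members off chromosome 19 were weaker, with 3.76 CPM. Summed over the 188 members, vehicle libraries 1 to 4 held 1434, 1443, 1385 and 1327 CPM, and sorbitol libraries 1 to 4 held 627, 628, 615 and 609 CPM. The libraries of a group were thus close to each other in the sum, while single weak peaks scattered more, with a median coefficient of variation of 12.4% in vehicle and 20.6% in sorbitol.

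The library totals ran from 11522266 to 19831471 counts in peaks. Pearson correlations of log2 CPM over peaks were 0.956 to 0.974 within groups and 0.925 to 0.939 between groups. Vehicle 4 and sorbitol 4 stood apart in the median log2 deviation of peaks on unplaced contigs, at 0.35 and −0.32; the part of this in the losses was not tested, and with both libraries left out the set numbered 221, of which 161 were among the 188.

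Because the rule chose members on these libraries, the choice was repeated with 1 vehicle and 1 sorbitol library of the same number left out, and the left-out libraries were then read. Leaving out number 1, 2, 3 or 4 gave 237, 226, 232 and 221 peaks. In the libraries that chose them, the median level left after sorbitol was 45.2%, 46.0%, 45.5% and 45.5% of vehicle. In the left-out libraries it was 52.6%, 52.9%, 54.9% and 52.4%, against 92.8%, 94.5%, 92.7% and 96.6% for all gene-end peaks in the same libraries. The loss was therefore smaller in libraries that took no part in the choice, but 90.7% to 96.8% of the chosen peaks were lower there, against 55.0% to 60.9% of all gene-end peaks. At most 0.5 of the vehicle level was left in 43.5%, 42.0%, 39.2% and 46.2% of the chosen peaks in the left-out libraries, compared with 2.29% to 3.25% of all gene-end peaks. Zinc finger peaks of chromosome 19 numbered 35, 36, 38 and 40 among the chosen, of which 34, 34, 38 and 40 were lower in the left-out libraries, beside the same 55.0% to 60.9%. Of all 191 zinc finger peaks of chromosome 19, chosen or not, 90.1% were called lower over all 8 libraries (edgeR, below). These 4 counts therefore say little about the choice. With 1 library against 1, no test was possible.

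The 188 members lay at 230 genes: 155 protein-coding genes, 38 lncRNA genes, 22 pseudogenes and 5 transcribed pseudogenes, 2 immunoglobulin V-segment pseudogenes, 5 microRNA genes and 3 snoRNA genes. By peak, 118 (62.8%) lay only at protein-coding genes, against 52.7% of all gene-end peaks. LncRNA genes alone accounted for 25 (13.3% against 21.5%) and pseudogenes alone for 22 (11.7% against 8.62%). The rest lay at microRNA genes (5), at snoRNA genes (2) or at genes of mixed biotype (16). Most members touched a single gene, and 22.9% touched several. Only ACP4 and CBX6 had more than 1 member peak, with 3 and 2.

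Chromosome 19 held 68 of the 188 members (36.2%), although it held 5.60% of all gene-end peaks. Of its 1342 gene-end peaks, 5.07% were members, compared with 2.31% on chromosome 22 (15 of 648), 1.11% on chromosome 16 (11 of 994) and 0.890% on chromosome 17 (11 of 1236). Chromosomes 13 and 18 had none. The shift of chromosome 19 was not limited to members: the median log2 fold change in the edgeR fit over all peaks was −0.52 for its gene-end peaks and −0.16 for all gene-end peaks. Lost peaks away from gene ends lay on chromosome 19 in 15.3% of cases (64 of 419). The chromosome held 2.66% of all autosomal peaks, so a large share there was not particular to gene ends. By contrast, 5 of 444 gene-end peaks that met the reverse of the rule (1.13%) lay on chromosome 19.

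**Figure D2:**
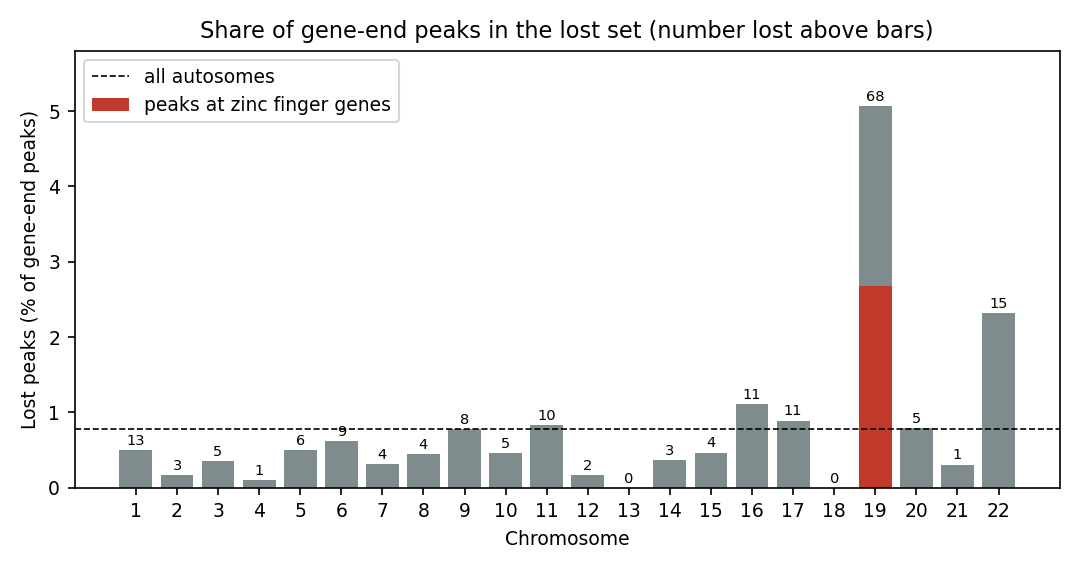
Members as a percentage of the gene-end peaks of each autosome (y axis), with the number of members above each bar, the share at zinc finger genes in red and the value for all autosomes, 0.785%, as a dashed line. Chromosome 19 stands at 5.07%, with 36 of its 68 members at zinc finger genes, and chromosome 22 at 2.31%.

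Zinc finger genes made up the largest group. Antisense lncRNA genes that bear a zinc finger gene's name, such as ZNF433-AS1 and ZNF790-AS1, were not counted among them. Of 533 gene-end peaks at genes named ZNF, ZSCAN, ZKSCAN or ZBTB, 36 were members, and all 36 lay among the 191 on chromosome 19 (18.8%). None of the 342 on other autosomes was a member. Over all gene-end peaks off chromosome 19 the share of members was 0.531%. At that share 342 peaks would hold few or none, so nothing is read from this count. The closest of the 342 was the shared start of ZNF605 and LOC124903064 on chromosome 12, with 52.1% left. In the fit over all peaks, 172 of the 191 zinc finger peaks of chromosome 19 were called lower and 0 higher (edgeR quasi-likelihood test, Benjamini-Hochberg adjusted p under 0.05). Their median log2 fold change was −0.79. On other autosomes, 188 of 342 were called lower and 15 higher, with a median of −0.32. Among all gene-end peaks 32.3% were called lower and 8.88% higher, and among those of chromosome 19 63.4% were lower. The rule used this contrast, so these counts describe the list and test nothing about the members.

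Within chromosome 19, members were spread over 6 stretches of zinc finger genes. The stretch from 19.7 to 24.0 Mb had 7 members among 19 zinc finger peaks (36.8%): ZNF66, ZNF708, ZNF738, ZNF493, ZNF429, ZNF100 and ZNF724. Between 48.3 and 53.4 Mb lay 9 members among 31 (29.0%), including ZNF808, ZNF611, ZNF845 and ZNF525. The stretches at 7.07 to 12.6 Mb, 34.7 to 37.8 Mb, 40.0 to 45.1 Mb and 55.5 to 58.5 Mb had 5 of 29, 5 of 21, 4 of 26 and 6 of 52. Of the 36 peaks, 29 lay at a gene start, 1 at a far end only, and 6 at genes whose strand is not in the promoter table.

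ZNF724 had 32.8, 28.8, 32.2 and 27.7 CPM in vehicle libraries 1 to 4 and 11.5, 12.3, 10.9 and 11.1 CPM in sorbitol libraries 1 to 4 (30.4 ± 2.52 against 11.5 ± 0.602, SD, n = 4). The peak spans the start of the gene (chr19:23249926-23250701) and kept 37.7% of its vehicle level. At ZNF708, a neighbour in the same stretch, the vehicle libraries held 29.1, 28.0, 27.8 and 24.5 CPM and the sorbitol libraries 14.2, 12.8, 11.6 and 13.2 CPM, so that 47.4% was left. The rule keeps the groups apart at every member. At both of these genes no vehicle library was under 24.5 CPM and no sorbitol library over 14.2 CPM. ZNF525 and ZNF808, at 28.9% and 29.0%, had the lowest shares left among zinc finger peaks but were weak. ZNF525 had 1.25, 1.72, 1.51 and 1.36 CPM in vehicle and 0.347, 0.557, 0.433 and 0.348 CPM in sorbitol, with a mean of 15 counts over the 8 libraries.

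The 32 other members of chromosome 19 included genes embedded among zinc finger genes. Within 50 kb of a zinc finger gene lay 8 of them (25%), against 10.3% of 1151 gene-end peaks of chromosome 19 that were not at zinc finger genes. These 8 were LOC124904625, ZNF433-AS1, ZNF790-AS1, LINC01535, LOC100505715, EDDM13, ZFP28-DT and LOC124904781, of which all but EDDM13 are lncRNA genes. LINC01535 showed the deepest loss of the 8: its vehicle libraries held 10.7, 11.2, 10.0 and 8.67 CPM and its sorbitol libraries 3.21, 3.82, 3.21 and 3.13 CPM, or 33.0% left. LOC124904625 was the strongest lncRNA member, with 31.1 to 44.6 CPM in vehicle and 15.3 to 19.9 CPM in sorbitol.

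Elsewhere on chromosome 19, IRF3, which encodes a transcription factor of the interferon response, had 8.41, 7.82, 6.76 and 9.62 CPM in vehicle and 2.26, 3.03, 2.69 and 2.02 CPM in sorbitol. It kept 30.6%, and the peak at the gene's other end kept 61.9% (24.4 ± 2.37 against 15.1 ± 1.04 CPM). EIF3G, a subunit of translation initiation factor 3, shares a member peak with P2RY11 and PPAN-P2RY11. That peak had 21.3, 21.8, 23.4 and 22.6 CPM in vehicle against 8.59, 10.6, 9.80 and 8.22 CPM in sorbitol. ACP4, an acid phosphatase gene, had 3 members within 1 kb of its far end, with 32.6%, 42.7% and 33.8% left. The strongest of them had 23.6, 19.5, 22.1 and 21.1 CPM in vehicle and 10.7, 7.33, 10.5 and 8.43 CPM in sorbitol.

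**Figure D3:**
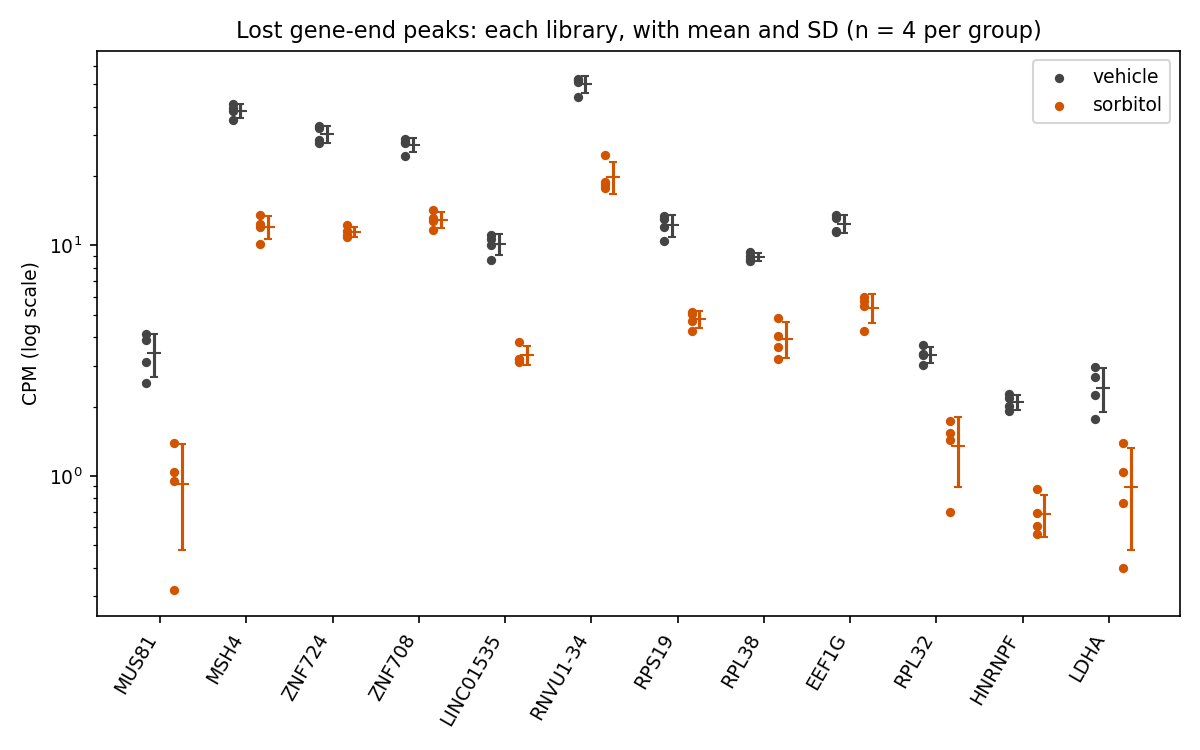
CPM of 12 members in each library (y axis, log scale), vehicle in grey and sorbitol in orange, with the mean and SD of 4 libraries beside each column of points. The groups do not overlap in any of the 12, by the rule, and the weak peaks at MUS81, RPL32 and LDHA scatter most in sorbitol.

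Where the gene's strand was known, members could be placed at the start or the far end. Of 122 such members, 53 (43.4%) lay at far ends only, compared with 17.1% of all gene-end peaks and 30.6% of those with a vehicle level within the members' quartiles. Without the zinc finger peaks of chromosome 19 the share was 56.5% against 17.2%. A large share at far ends was not particular to lost peaks, since 42.9% of the gained gene-end peaks (91 of 212) also lay there. The strand of 66 members was not in the promoter table.

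At genes that lost a far-end peak, the start kept a larger share of its level than the lost peak did, but a smaller share than gene starts in general. Gene starts were examined for 72 pairs of a gene and a lost far-end peak, and 56 had a peak there. Some peaks recur among the pairs, as where 2 genes share a lost peak, and some lost peaks also lie at a neighbouring gene's start. These start peaks were stronger, with a median of 27.9 CPM in vehicle against 4.33 CPM for the lost peaks, and kept a median of 78.1% against 46.2%. Of the 56, 42 were called lower, 0 were called higher and 0 belonged to the set (edgeR, adjusted p under 0.05). Over all gene-start peaks, 39.1% were called lower and a median of 92.5% was left. The far-end values were chosen to be low, so the difference between the ends was not tested. In the reverse case, 8 of 77 genes with a lost start peak had a peak at the far end, of which 5 were called lower, with a median of 62.7% left.

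Ribosomal protein genes also had members at far ends. Of 117 gene-end peaks at these genes, which encode the proteins of the cytosolic ribosome, 7 were members: RPS15A, RPL38, RPS19, RPL32, RPL22L1, RPL37 and RPS14. That was 5.98% of the 117, against 0.785% of all gene-end peaks. All of the 5 with a known strand lay at far ends, where the list had 18 peaks, and none of its 79 start peaks was a member. Over all gene-end peaks, 1.87% of those at far ends only were members, and 0.434% to 0.508% of those at gene starts. At the latter share 79 peaks would hold few or none, so nothing is read from the count at starts. Median log2 fold changes were −0.80 at the 18 far ends and −0.25 at the 79 starts, against −0.12 and −0.20 for all gene-end peaks at far ends and starts. The rule chose 5 of the 18 far-end peaks for their low values, so these medians describe the list and the difference was not tested. RPL38, RPS19 and RPL37 come from the naming rule, and the other 4 are named because the group is small, after their values were seen.

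RPS19 had 12.0, 13.0, 13.4 and 10.4 CPM in vehicle and 5.03, 4.70, 4.25 and 5.15 CPM in sorbitol at its far end (chr19:41872890-41873569), or 39.2% left. RPL38 had 9.39, 8.56, 9.03 and 8.74 CPM against 4.86, 4.06, 3.64 and 3.20 CPM (chr17:74211504-74212080), or 44.1% left. RPL32 was weaker, at 3.02, 3.33, 3.68 and 3.39 CPM against 0.694, 1.43, 1.73 and 1.53 CPM. At each of the 3 genes the lowest vehicle library lay above the highest sorbitol library, as the rule requires, and at RPL32 sorbitol 1 was the lowest of the 8. RPS14 had 4.40, 3.16, 3.68 and 3.46 CPM in vehicle and 1.39, 1.67, 1.56 and 1.32 CPM in sorbitol.

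The start peaks of these genes were not chosen by the rule. RPL32's start held 20.8 ± 0.647 CPM in vehicle and 25.1 ± 2.15 CPM in sorbitol, or 120.6% of vehicle (SD, n = 4 each). The starts of RPS14, RPL38 and RPL22L1 stood at 115.2%, 110.5% and 107.7%, and the other end of RPL37, whose strand is not in the table, stood at 109.5%. None of these 5 changes passed the test (edgeR adjusted p from 0.122 to 0.857). The direction held under each scaling tried, but the call did not: with library totals RPL32 and RPS14 were called higher (edgeR adjusted p = 0.0152 and 0.0399), and with an abundance-dependent loess offset all but RPL38 were, at log2 fold changes of 0.21 to 0.33. RPS19 was the exception, with 32.3 ± 2.39 CPM in vehicle and 23.4 ± 1.54 CPM in sorbitol at its start, a fall to 72.5% (edgeR adjusted p = 4.22e-06). The other end of RPS15A stood at 90.6% (edgeR adjusted p = 0.0688).

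**Figure D4:**
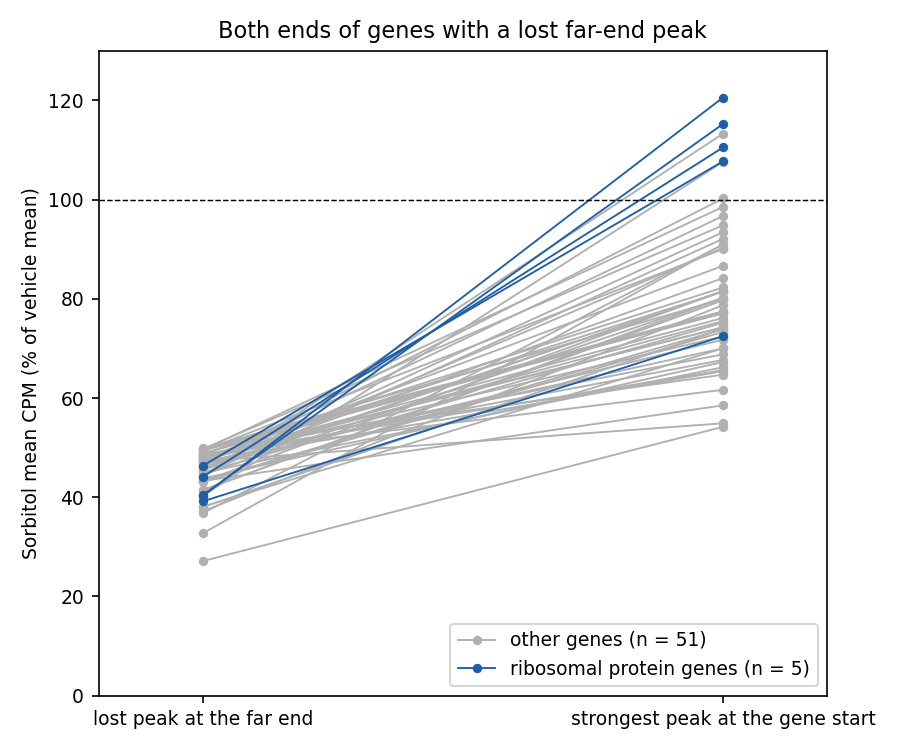
Level left after sorbitol (y axis, mean sorbitol CPM as a percentage of mean vehicle CPM) at the lost far-end peak and at the strongest start peak of the same gene, for 56 pairs of gene and lost peak joined by lines; blue lines are ribosomal protein genes. The lost peaks lie under 50% by the rule, the starts have a median of 78.1%, and 4 of 5 ribosomal protein genes with a known strand stand above 100% at the start.

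Other far-end members lay at protein-coding genes of several functions. MUS81, a subunit of an endonuclease that cuts branched DNA, had the lowest ratio of all members: 3.88, 2.53, 3.13 and 4.13 CPM in vehicle and 0.955, 0.319, 1.04 and 1.39 CPM in sorbitol, or 27.1% left. Its start kept 54.2% and was called lower (30.0 ± 3.22 against 16.2 ± 1.28 CPM, edgeR adjusted p = 4.64e-11). HNRNPF, an RNA-binding splicing regulator, kept 32.7% at its far end, with 1.90, 2.01, 2.27 and 2.17 CPM in vehicle and 0.608, 0.876, 0.694 and 0.557 CPM in sorbitol. Its start kept 91.0% (64.7 ± 5.41 against 58.8 ± 2.63 CPM, edgeR adjusted p = 0.0321). The 2 genes thus shared a deep loss at the far end and differed in how much of the start was left, a difference that was not tested.

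EEF1G, a subunit of translation elongation factor 1, had 13.1, 13.6, 11.5 and 11.4 CPM in vehicle and 5.99, 5.73, 5.46 and 4.25 CPM in sorbitol at its far end. That was 43.2% left, beside 81.6% at the start (edgeR adjusted p = 0.00123). LDHA, the A subunit of lactate dehydrogenase and named after its values were seen, kept 37.2% at the far end and 78.7% at the start (edgeR adjusted p = 0.000104). TAF1D, a subunit of the selectivity factor of RNA polymerase I, kept 46.8% at the far end, while its start stood at 96.7% and did not pass the test (edgeR adjusted p = 0.256). POLR3A, the largest subunit of RNA polymerase III, kept 48.5% and 68.8%. At CBX6, a Polycomb protein gene, both far-end members (38.1% and 47.0% left) lay beside a start at 70.0%.

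MSH4 stood apart among members off chromosome 19. It encodes a MutS homologue of meiotic recombination, and the peak at its start was wide and strong (chr1:75796232-75797926). Vehicle libraries held 34.9, 38.3, 40.9 and 39.5 CPM and sorbitol libraries 10.2, 12.0, 12.4 and 13.5 CPM, which left 31.3% (38.4 ± 2.59 against 12.0 ± 1.40, SD, n = 4). The strongest member of all was RNVU1-34, listed by RefSeq as a pseudogene and named for the U1 variant family of splicing RNAs. Its peak (chr17:58678885-58680132) had 53.0, 52.1, 51.1 and 44.2 CPM in vehicle and 18.8, 24.7, 18.4 and 17.8 CPM in sorbitol, or 39.8% left.

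Another 6 members touched pseudogenes named for small RNAs: RNU1-129P beside PDZK1P1, RNU1-84P, RNU1-134P, RNU6-513P, RNA5SP202 and TRS-ACT1-1. The rule removed genes of the tRNA and snRNA biotypes, and these 7 loci passed because RefSeq lists them as pseudogenes. They were grouped after their values were seen. Besides the 7, the pseudogene LOC112267925 near the end of chromosome 17 had 16.5, 16.9, 18.9 and 17.2 CPM in vehicle against 4.34, 4.54, 5.72 and 6.27 CPM in sorbitol (30.0% left). SEPTIN14P6, DDX11L8, NAIPP3, NAIPP4 and the immunoglobulin pseudogenes IGHVIII-38-1, IGHV1OR15-6 and IGHV4-55 were members too. Such loci have near-identical copies, so their counts are uncertain if reads could align to several places. SnoRNA genes added SNORD131 (48.3% left) and a peak at SNORA17A and SNORA17B (48.7% left), and the snoRNA host SNHG7 kept 45.8% at its far end and 81.5% at its start.

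The remaining lists held few or no members. Over all gene-end peaks the share of members was 0.785%, at which lists of these sizes would hold few or none. Nothing is therefore read from these counts. Splicing and RNA-binding protein genes had 3 of 184 (HNRNPF, DHX34, and SNRPD2 at a peak shared with QPCTL), translation factors 2 of 95 (EEF1G and EIF3G), and transcription machinery 2 of 146 (POLR3A and TAF1D). Mitochondrial genes had 1 of 209, at MRPL20 and its antisense gene, and proteasome and ubiquitin genes 1 of 107, at UBE2G2, an E2 enzyme. None of the 64 histone, 89 chaperone, 52 immediate early, 10 growth arrest, 9 integrated stress response, 17 YAP target, 10 osmotic or 17 polymerase III small RNA gene-end peaks was a member. The lowest ratio among these was 0.513, at a peak shared by JUNB and HOOK2. Among osmotic genes it was 0.823, at NFAT5, which encodes the tonicity-responsive transcription factor, and among YAP targets 0.585, at AXL.

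Peaks beside the members could be tested, since the rule did not choose them. Genes with a member had 142 other gene-end peaks, of which 102 (71.8%) were called lower and 0 higher (edgeR, adjusted p under 0.05). The median of the 142 log2 fold changes was −0.48. On chromosome 19, 23 of 31 were lower (74.2%), against 63.4% of all its gene-end peaks. On other autosomes 79 of 111 were lower (71.2%), against 30.4%. So the share called lower was closer to the background on chromosome 19 than elsewhere. The median log2 fold changes lay below background in both: −0.69 against −0.52 on chromosome 19, and −0.45 against −0.15 elsewhere. Peak level was not matched in this comparison. Peaks of 1 gene share libraries and neighbourhood and are not independent.

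The same contrast held with distance. Off chromosome 19, other peaks up to 2 kb from a member had a median log2 fold change of −0.57 (68 peaks), those at 2 to 10 kb −0.39 (165), those at 10 to 50 kb −0.35 (666) and those at 50 to 200 kb −0.26 (2038). All other peaks of these chromosomes had a median of 0.02. The shares called lower fell from 85.3% through 43.0% and 41.4% to 34.9%, with 12.1% for all of them. On chromosome 19 the medians were −0.58 (23 peaks), −0.43, −0.49 and −0.46 in the same bins and −0.44 over the chromosome, so that beyond 2 kb distance made little difference. Gene-end peaks made up 64.7% of the nearest bin and 18.9% of all peaks off chromosome 19, and the part of this in the trend was not tested.

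**Figure D5:**
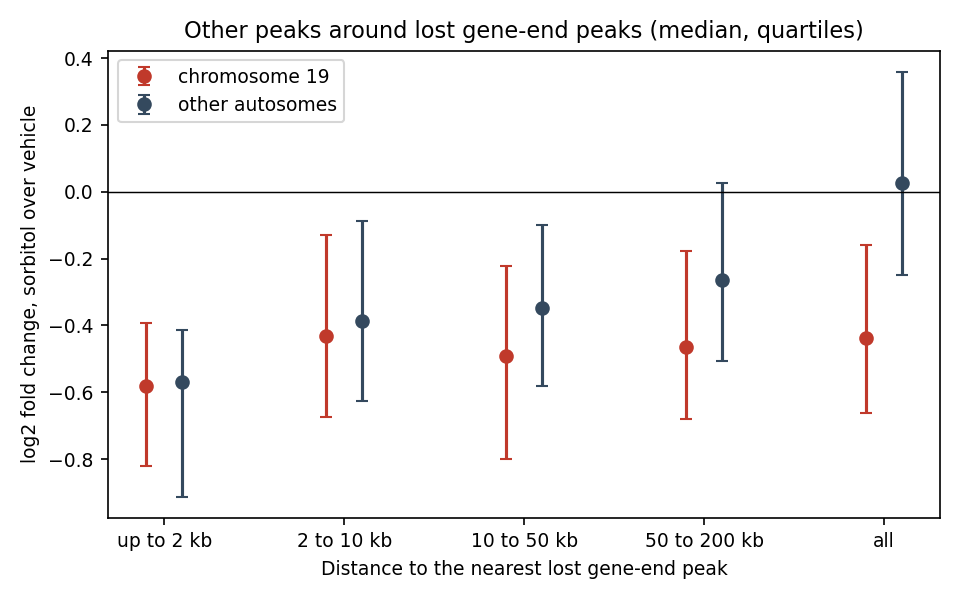
Median log2 fold change, sorbitol over vehicle, of peaks that are not members (y axis; bars are quartiles) by distance to the nearest member (x axis, 4 bins and all peaks), for chromosome 19 and for the other autosomes. The median rises from −0.57 to −0.26 and then to 0.02 off chromosome 19, and stays between −0.58 and −0.43 on it.

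RefSeq promoter windows, 250 bases before to 50 after a start, overlapped 38 members and 10836 gene-end peaks in all. Their median GC content was 59.2%, below the 66.0% of all gene-end windows, and the ratio of observed to expected CpG was 0.724 against 0.832. CCGGAAG, the core of many ETS factor sites, stood on either strand in 52.6% of the members' windows, 16.9% of all gene-end windows and 10.3% of all 33725 autosomal windows. Much of this belonged to the zinc finger genes: 61.5% of 26 windows of zinc finger members on chromosome 19 held it, and so did 43.9% of the 157 windows of all zinc finger peaks there. Among the 12 windows of other members 33.3% did.

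CCAAT stood in 52.6% of the members' windows, against 34.4% of gene-end windows and of all autosomal windows. The GC box GGGCGG stood in 57.9%, against 70.0% and 45.0%, and the E-box CACGTG in none of the 38, against 9.46% and 7.18%. GGAATG, the core of the TEAD sites through which YAP acts, stood in 21.1% (8 of 38), against 10.8% of gene-end windows and 14.0% of all autosomal windows. The tonicity element core TGGAAA also stood in 21.1%, against 15.1% and 20.8%, and TATAAA in 10.5%, against 5.90% and 11.6%. For TGGAAA and TATAAA the members' shares were thus close to those of all autosomal windows. The other motifs searched were TGACGT (the core of the cAMP response element), TGANTCA (AP-1), GCATGCG (NRF1), ATGGCGG (YY1) and ACTACAA (ZNF143), each in 5.26% to 10.5% of the 38 windows. Of the 38 windows, 26 belonged to zinc finger members of chromosome 19. In the 157 windows of all zinc finger peaks there, CCAAT stood in 47.1%, GGGCGG in 66.9%, CACGTG in 3.82% and GGAATG in 14.0%. In the 12 windows of other members the shares were 58.3%, 41.7%, 0% and 33.3%. A match describes letters in the window, not binding.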

How the data were processed

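The deposited table holds raw counts per peak that the authors made for 8 ATAC-seq libraries, 4 per group, from 75 bp paired-end reads. The submitters' processing notes name Trim Galore 0.6.10, BWA 0.7.17, SAMtools 1.22, MACS2 2.2.9.1, DESeq2 and hg38, with no order. How peaks were merged, and whether reads or fragments were counted, is not given in the sources used here. Table starts count from 0 and are printed from 1. Gene ends, biotypes and promoter sequences came from RefSeq (GRCh38.p14), and strand from its promoter table.

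CPM was a peak's count divided by the library's total over all peaks, times 1e6. The edgeR 4.0.16 quasi-likelihood test (R 4.3.3) used TMM factors, treatment as the only term and filterByExpr (minimum count 10, minimum total 15), which removed 49 peaks and left 129487. P-values were Benjamini-Hochberg adjusted over these, with a threshold of 0.05. They measure the spread between libraries, which may be technical. The fit was tested on simulated data. Totals of 11522266 to 19831471 counts gave the weakest member a mean of 11.8 counts. Reads without molecular identifiers are not independent molecules. No 2 libraries were identical.

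The members, gene lists and motifs were chosen with earlier results of these data known. Named peaks were the 12 members with the lowest ratio, the 8 with the highest vehicle level, the top 2 per biotype class, the top 3 per gene list, genes with 3 members, and the 3 peaks on either side of the limit. Alternatives covered scaling (DESeq2 1.42.0 size factors among them), test, filter, window, replicate block and left-out libraries. Peak sequences away from promoters were not analysed here. One marker gene is not reported here.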

Additional observations from a re-analysis of the deposited data

Results flagged for a closer look

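Of 82 groups of 4 libraries examined at 41 named peaks, 2 had a library far from the other 3, by a gap test that chance passes in about 1 of 20 groups (about 4.1 here). At LINC01535, sorbitol 2 had 3.82 CPM, while the other sorbitol libraries had 3.13 to 3.21 CPM and the vehicle libraries 8.67 to 11.2 CPM. At RNVU1-34, sorbitol 2 had 24.7 CPM, while the other sorbitol libraries had 17.8 to 18.8 CPM and the vehicle libraries 44.2 to 53.0 CPM. In both, sorbitol 2 stayed below every vehicle library, as the rule requires.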

How the results depend on the processing

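The number of members depended on scaling and depth. It was 188 with library totals, 272 with TMM sizes, 292 with DESeq2 size factors and 103 with a mean of at least 50 counts, which leaves out the weaker members. It was 186 with medians, 133 and 269 with windows of 500 bp and 2 kb, and 179 to 225 with 1 library left out. Zinc finger members of chromosome 19 numbered 30 to 47 and far-end members 25 to 80 over all of these settings. In the fit over all peaks, 37715 were called, 21385 in a separate fit that kept only peaks averaging 50 counts or more, and 30554 to 38650 with 1 library left out. Members called lower numbered 188, 103 with at least 50 counts (all that were tested), and 185 to 188 with 1 library left out. The rule on the same libraries fixes this count, so it shows no stability; of all gene-end peaks 32.3% were called lower. Library totals alone gave 12651 lower and 26160 higher peaks, against 17016 and 20699 with TMM, and 92 in place of 102 lower peaks among other gene-end peaks of the members' genes (91 to 101 with 1 library left out).

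Same-numbered libraries did not deviate together (correlations −0.145 to 0.00697). That cannot show whether they were handled in pairs. With the replicate block, 213 members, 34445 called peaks, 188 members called lower and 98 other gene-end peaks were found. Of 602 values at 41 named peaks, 600 kept direction and call and 0 reversed, which the rule that chose these peaks largely fixes. DHX34 lost its call without sorbitol 3 (edgeR adjusted p = 0.107) and without vehicle 1 (0.0663). Leaving out number 4 in both groups, chosen after seeing the data, gave 221 members.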
